A study of Arabidopsis thaliana with 25 samples.

Results

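The genes of tetrapyrrole synthesis and chlorophyll turnover were followed in dissected seed leaves (cotyledons) of the plant Arabidopsis thaliana, taken from dark-grown seedlings, from seedlings turning green and from green ones. The set held 34 nuclear genes of the 53986 entries in the count table, of which 38410 were nuclear Arabidopsis entries. The genes were taken by identifier for the steps from glutamyl-tRNA to chlorophyll, heme and phytochromobilin, with the chlorophyll cycle and chlorophyll breakdown added and the protochlorophyllide reductases left out. The rule used no measured value. All 34 had enough counts to be tested among 20615 genes.

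All libraries came from wild-type (WT) seedlings, and each of 5 groups held replicates 1 to 5. Seedlings of the dark group (D) had spent 5 days on half-strength Murashige and Skoog medium in darkness. The 1 h, 6 h and 24 h groups were such dark-grown seedlings moved to continuous light for that time. Group L had grown for 5 days in long days. Dark seedlings of the same age as the 24 h group were not analysed here, so light cannot be told apart from age or time of day, and L differs from 24 h in day length too. Cotyledons were dissected after acetone fixation, and Drosophila cells were added before extraction as an outside standard. The sources used here do not say how many seedlings went into a library, so the amount of cotyledon tissue per Drosophila cell is not known. A change on the Drosophila scale cannot be told apart from a difference in that amount. The p-values measure the spread between these libraries.

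Libraries held 17901840 to 24085995 counts, of which 0.184% to 4.03% were Drosophila. The unit of level, spike-scaled CPM, divides the counts of a gene by a library size that the Drosophila counts set. After ± stands the SD over 5 libraries where the value is a level or share, and the SE where it is a log2 fold change. Nuclear Arabidopsis counts per Drosophila count lay between 23.1 and 74.7 in dark and between 219 and 536 in L. A second scale, TMM over Arabidopsis genes, sets the median gene near no change. Replicates 1 and 2 stood apart from replicates 3 to 5. Their plastid share of Arabidopsis counts was 0.549% to 4.09% against 3.83% to 16.0%, and their dark libraries had the lowest levels of every gene of the set but SGR2. The cotyledon and leaf markers FIL, YAB3, YAB5, AS1, PHB and KAN1 were present in all groups, with summed levels of 99.5 to 362 spike-scaled CPM in dark and 446 to 1043 in L. Of 6 root markers RGF1 was at 0 in every library, and their sum was 0 to 0.681 from dark to 24 h and 0.883 to 6.08 in L. Of 7 shoot meristem markers the summed level was 2.69 to 13.2 in dark and 1.82 to 8.35 in L. The part of either tissue in any result was not tested. In such bulk samples fewer cells of a type and less RNA per cell cannot be told apart.

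Among the tetrapyrroles, chlorophyll and heme are ring-shaped pigments that hold a metal. Plants make them in plastids from glutamyl-tRNA through 5-aminolevulinic acid (ALA), and at protoporphyrin IX the path splits. Magnesium chelatase leads to chlorophyll, and ferrochelatase leads to heme and, by way of heme oxygenase, to the bilin pigment of phytochrome. Free intermediates make harmful oxygen species in light, and dark-grown seedlings of flowering plants stop at protochlorophyllide because the next step needs light. The chlorophyll cycle turns chlorophyll a into chlorophyll b and back, and breakdown removes magnesium, phytol and the ring itself.

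Sequences upstream of gene starts are shown first, since genes of this pathway are known targets of light-regulated factors that bind short promoter words. A window of 250 bases before the annotated start was read from RefSeq TAIR10.1 for all 34 genes and searched on both strands for CACGTG (G-box), CCAATC (a word bound by GLK factors), AAAATATCT (evening element) and GATAA (I-box). The 3 genes that rose at 1 h, described further on, were CHLH, GUN4 and CAO, and their windows are given 5′ to 3′ on the gene's strand with matches in capitals.
CHLH: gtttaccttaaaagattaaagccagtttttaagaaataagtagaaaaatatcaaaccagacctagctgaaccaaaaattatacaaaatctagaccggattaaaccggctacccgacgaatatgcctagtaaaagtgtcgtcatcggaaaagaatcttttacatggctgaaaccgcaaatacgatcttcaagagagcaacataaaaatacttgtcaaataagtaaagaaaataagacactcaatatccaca
GUN4: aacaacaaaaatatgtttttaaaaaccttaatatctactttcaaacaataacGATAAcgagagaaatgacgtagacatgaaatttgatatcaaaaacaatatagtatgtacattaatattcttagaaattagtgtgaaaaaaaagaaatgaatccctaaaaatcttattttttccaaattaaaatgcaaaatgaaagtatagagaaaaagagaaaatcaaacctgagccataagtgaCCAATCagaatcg
CAO: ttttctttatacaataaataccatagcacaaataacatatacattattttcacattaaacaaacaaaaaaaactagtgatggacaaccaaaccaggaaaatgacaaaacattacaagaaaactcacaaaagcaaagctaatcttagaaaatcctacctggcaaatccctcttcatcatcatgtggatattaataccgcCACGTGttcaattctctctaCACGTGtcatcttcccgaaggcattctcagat
The CHLH window (chr5:4392430-4392679, minus strand) held none of these words. The GUN4 window (chr3:21949797-21950046, minus strand) held an I-box 198 bases and a CCAATC 13 bases before the start. The CAO window (chr1:16851272-16851521, minus strand) held a pair of G-boxes, which begin 52 and 32 bases before the start.

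A G-box lay in 7 of the 34 windows (20.59%), and 1780 of 27443 such windows, those of all nuclear protein-coding genes, held one (6.486%). Each match is shown with the bases around it, 30 in all, with the G-box in capitals, because these are the places where the windows can be compared.
HEMD 22 bases upstream: gacattaaaacgCACGTGgagatagaattg
CHL27 52 bases upstream: attaattatcgcCACGTGtctggctcccac
CAO 52 bases upstream: tattaataccgcCACGTGttcaattctctc
CAO 32 bases upstream: caattctctctaCACGTGtcatcttcccga
FC2 14 bases upstream: atcacaactgtgtggaCACGTGtggttctc
HY2 79 bases upstream: gactgtgcattcCACGTGgcggatgtgggc
NOL 21 bases upstream: cttatatgccgcCACGTGgcatttaactct
SGR2 112 bases upstream: cgcaattaaagcCACGTGtgaaccttaatc
The distances are from the first base of the word to the gene start. The 7 genes belong to 5 roles: HEMD to the common path, CHL27 to the magnesium branch, FC2 and HY2 to the heme and bilin branch, CAO and NOL to the chlorophyll cycle and SGR2 to breakdown. Among them CAO, CHL27 and FC2 were called higher at 6 h, as were 15 of all 34, whereas HEMD, HY2, NOL and SGR2 were not. CCAATC was found in 2 windows (5.882%, against 10.23% of all windows), those of GUN4 and GSA2. The evening element was found in 1 window, that of NYC1 (2.941%, against 2.361%), and the I-box in 19 (55.88%, against 54.9%). A match is a description of these letters, not a site of binding.

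The 34 genes took a larger share of the nuclear counts at 24 h and in L than in dark. Their share was 0.628% ± 0.160 in dark (SD, n = 5), 0.740% ± 0.0991 after 1 h, 0.853% ± 0.110 after 6 h, 0.964% ± 0.0609 after 24 h and 0.941% ± 0.0467 in L. Dark libraries ranged from 0.407% to 0.822%, and all libraries of 24 h and L lay above that range. On the spike scale their summed level was 842, 1579, 3421, 4802 and 4926 in dark replicates 1 to 5 and 41221, 45064, 18685, 40264 and 29339 in L. The lowest L library held more than the highest dark library.

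Genes were called with edgeR's quasi-likelihood test at an adjusted p under 0.05 over all genes tested. At 1 h, 3 members were called higher and none lower, where 3.06% of all genes were called higher and 0.994% lower. At 6 h, 15 were called higher and none lower (21.4% and 5.05% of all genes). At 24 h, 28 were called higher and none lower (50.3% and 3.76% of all genes). In L all 34 were called higher, where 84.9% of all genes were higher and 1.96% lower, so the count in L is near what most genes did. At an unadjusted p under 0.05, 5 members were higher at 1 h (HEMA1, CHLH, GUN4, CAO and SGR1) and 18 at 6 h. At that threshold a single member was lower than dark in these comparisons, HCAR at 6 h, and DESeq2 with Drosophila size factors called none lower and 3, 16, 28 and 34 higher.

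Relative to all genes the order of the comparisons was different. The median log2 fold change of the members against all genes was -0.0037 against 0.03 after 1 h, 1.16 against 0.56 after 6 h, 2.01 against 1.19 after 24 h and 2.85 against 2.35 in L. Members above the median of all genes numbered 16 of 34 after 1 h, 24 after 6 h, 27 after 24 h and 23 in L. By TMM where the median of all genes stayed within 0.04 of 0, 7 members were called higher and none lower at 1 h (8.94% and 5.21% of all genes). On that scale 19 were higher and 6 lower at 6 h (26.9% and 25.9%), 23 higher and 4 lower at 24 h (27% and 27.8%) and 18 higher and 4 lower in L (28.6% and 28.1%). All 3 members called at 1 h and all 15 called at 6 h on the spike scale were also higher on the TMM scale, and so were 23 of 28 at 24 h and 18 of 34 in L. In L, HEMA2, PPOX2, HY2 and HCAR were higher than dark on the spike scale and lower on the TMM scale.

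The replicate sets gave different counts. Replicates 1 and 2 alone gave 8 members higher after 1 h, 24 after 6 h, 28 after 24 h and 33 in L, and replicates 3 to 5 alone gave 0, 7, 25 and 29. The share of all genes called within each set was not counted, so the difference cannot be read as particular to the members. At 1 h no member had all its libraries clear of the dark range, though single libraries lay above it, as for CAO. The libraries of 6 h all lay above every dark library for 6 members (HEMA1, CHLH, GUN4, DVR, CAO and FC2), those of 24 h for 23 and those of L for 29. Clearance of the dark range was not counted over all genes, so these numbers cannot be read as particular to the members. The 3 calls at 1 h fell to 1 without dark replicate 1 or 3, and to none without dark replicate 2 or 1 h replicate 2 or 4. They fell to 1 with only the libraries of dark and 1 h fitted.

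**Figure D1:**
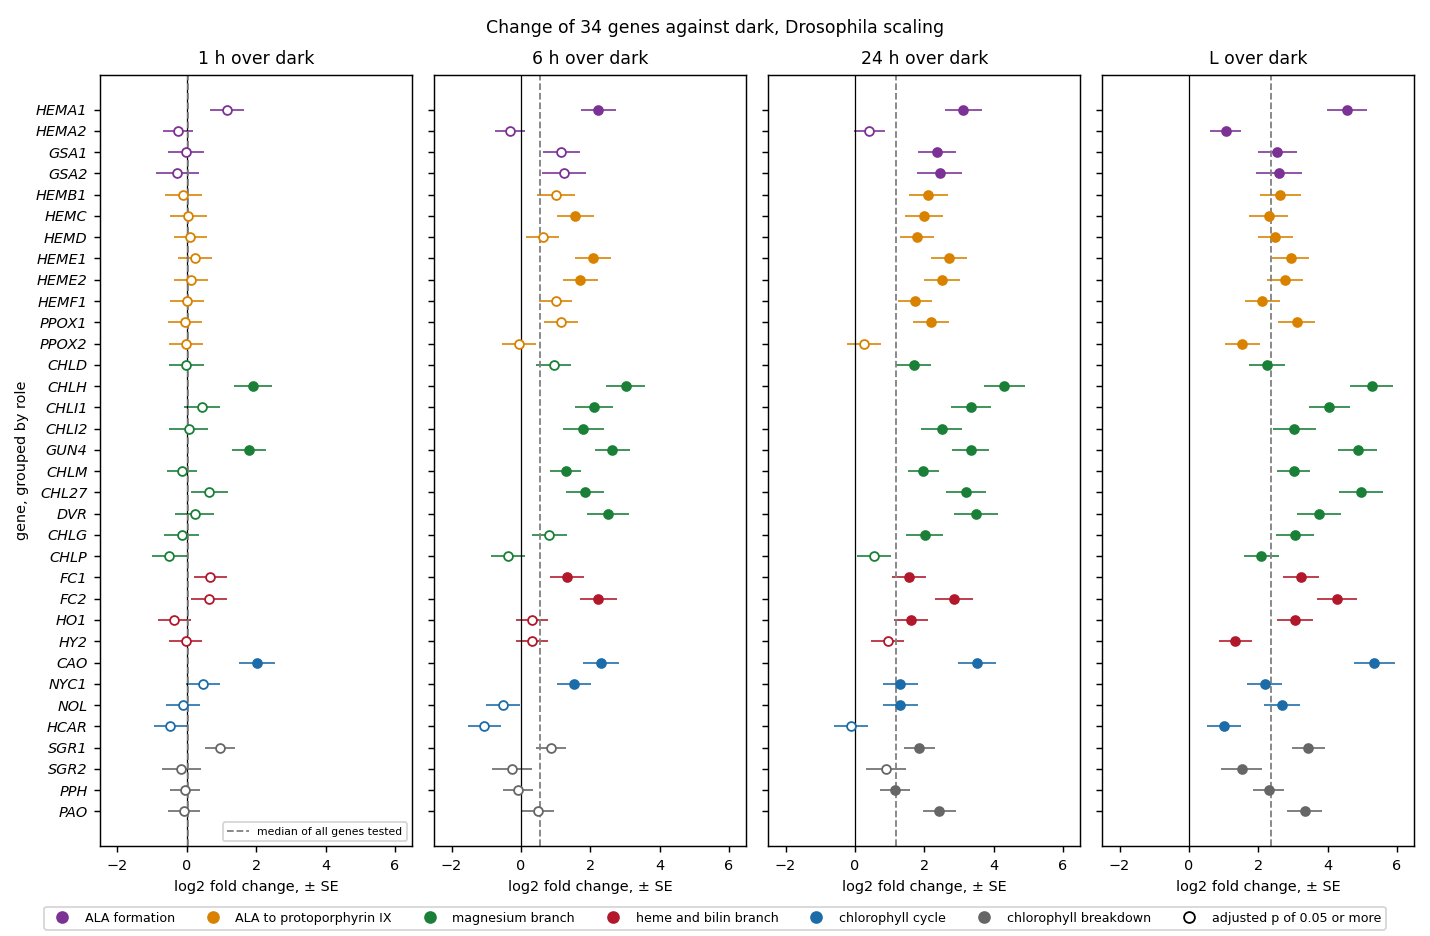
Log2 fold change against dark (x axis, ± SE) of the 34 genes, grouped by role (y axis, colours), at 1 h, 6 h, 24 h and in L on the Drosophila scale; filled points have an adjusted p under 0.05 and the dashed line is the median of all genes tested. Filled points number 3, 15, 28 and 34 from left to right, while the dashed line moves from 0.03 to 2.35.

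ALA formation sets how much pigment can be made. Glutamyl-tRNA reductase, encoded by HEMA1 (AT1G58290) and HEMA2 (AT1G09940), is its rate-limiting enzyme, and the aminotransferase of GSA1 (AT5G63570) and GSA2 (AT3G48730) completes ALA. Of the 4 genes none was called after 1 h, 1 after 6 h, 3 after 24 h and 4 in L. HEMA1 (chr1:21623700-21626402, minus strand, 3 exons in its longest transcript), the main isoform of green tissue, rose first. HEMA1 stood at 16.8, 28.0, 65.8, 92.8 and 100.5 spike-scaled CPM in dark replicates 1 to 5, at 53.9, 200.1, 73.6, 262 and 86.2 in the 1 h replicates and at 326, 281, 133, 429 and 264 in the 6 h replicates. At 24 h HEMA1 had 366, 519, 643, 803 and 330.1, and in L 1817, 1685, 879.9, 1629 and 1140.5. From 6 h on no light-treated library overlapped the dark libraries. The log2 fold change of HEMA1 was 1.15 ± 0.50 (adjusted p = 0.303) after 1 h, 2.24 ± 0.52 (adjusted p = 0.00139) after 6 h, 3.13 ± 0.54 (adjusted p = 1.41e-05) after 24 h and 4.56 ± 0.57 (adjusted p = 2.45e-08) in L. With TMM scaling HEMA1 was called at 1 h too, at 1.18 (adjusted p = 0.000739). Within replicates 1 and 2 its change at 6 h was 3.76 and within replicates 3 to 5 it was 1.67.

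HEMA2, the second reductase isoform, kept to a much narrower range. HEMA2 stood at 7.36, 10.2, 19.4, 23.5 and 29.6 spike-scaled CPM in dark replicates 1 to 5, at 13.1, 30.1, 11.1, 10.2 and 10.9 in the 1 h replicates and at 15.1, 17.1, 7.03, 18.8 and 14.5 in the 6 h replicates. At 24 h HEMA2 had 12.6, 23.3, 21.7, 38.3 and 23.8, and in L 28.1, 36.0, 16.6, 68.5 and 39.5. The dark and L libraries overlapped for HEMA2. Its change was -0.26 at 1 h, -0.31 at 6 h and 0.41 at 24 h, none of which passed, and 1.07 ± 0.45 (adjusted p = 0.0269) in L. That call was lost without dark replicates 1 (0.87) and 2 (0.92) or L replicate 4 (0.74). Scaled by TMM, HEMA2 was lower than dark, at -0.83 at 6 h, -0.84 at 24 h and -1.30 in L (adjusted p = 8.88e-05).

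The ratio of the counts of both isoforms inside a library needs no scaling, and it moved in every comparison. HEMA1 counts over HEMA2 counts were 2.28, 2.73, 3.40, 3.95 and 3.40 in dark replicates 1 to 5, 4.11, 6.64, 6.65, 25.6 and 7.91 at 1 h and 21.5, 16.4, 19.0, 22.8 and 18.1 at 6 h. They were 28.9, 22.2, 29.5, 20.9 and 13.9 at 24 h and 64.5, 46.7, 52.9, 23.7 and 28.8 in L. Every library in light lay above every dark library. The log2 ratio differed from dark by 1.41 ± 0.46 after 1 h, 2.65 ± 0.16 after 6 h, 2.85 ± 0.24 after 24 h and 3.71 ± 0.31 in L. Each had a two-sided exact permutation p of 0.00794, the smallest that 5 against 5 can give, and 0.0153 after adjustment over 52 tests (13 pairs in 4 comparisons). Per length of transcript the median ratio went from 3.23 in dark to 44.5 in L. The coding sequences of the isoforms agree in 83.1% of aligned bases, with a longest shared run of 49 bases. Only reads that cover no more than such a run would match both coding sequences in full. Assignment of reads to the wrong isoform was not tested.

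GSA1 and GSA2 rose side by side at 24 h. GSA1 ranged over 7.66 to 59.8 spike-scaled CPM in dark and 94.8 to 287 at 24 h, where its change was 2.36 ± 0.56 (adjusted p = 0.000761). GSA2 ranged over 6.88 to 100.3 in dark and 101.9 to 545 at 24 h, a change of 2.44 ± 0.65 (adjusted p = 0.00239). At 6 h GSA1 had 1.16, which did not pass, and it passed without dark replicate 4 (1.5) or 6 h replicate 3 (1.41). The ratio GSA1/GSA2 differed from dark in none of 4 comparisons, with differences of -0.30 to -0.0022 on the log2 scale. The ratio followed the replicate sets instead: GSA1 had 0.794 to 1.31 times the counts of GSA2 in replicates 1 and 2, and 0.462 to 0.688 times in replicates 3 to 5. With labels exchanged only within the sets the differences at 6 h and 24 h passed (exact permutation, adjusted p = 0.0271 each).

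**Figure D2:**
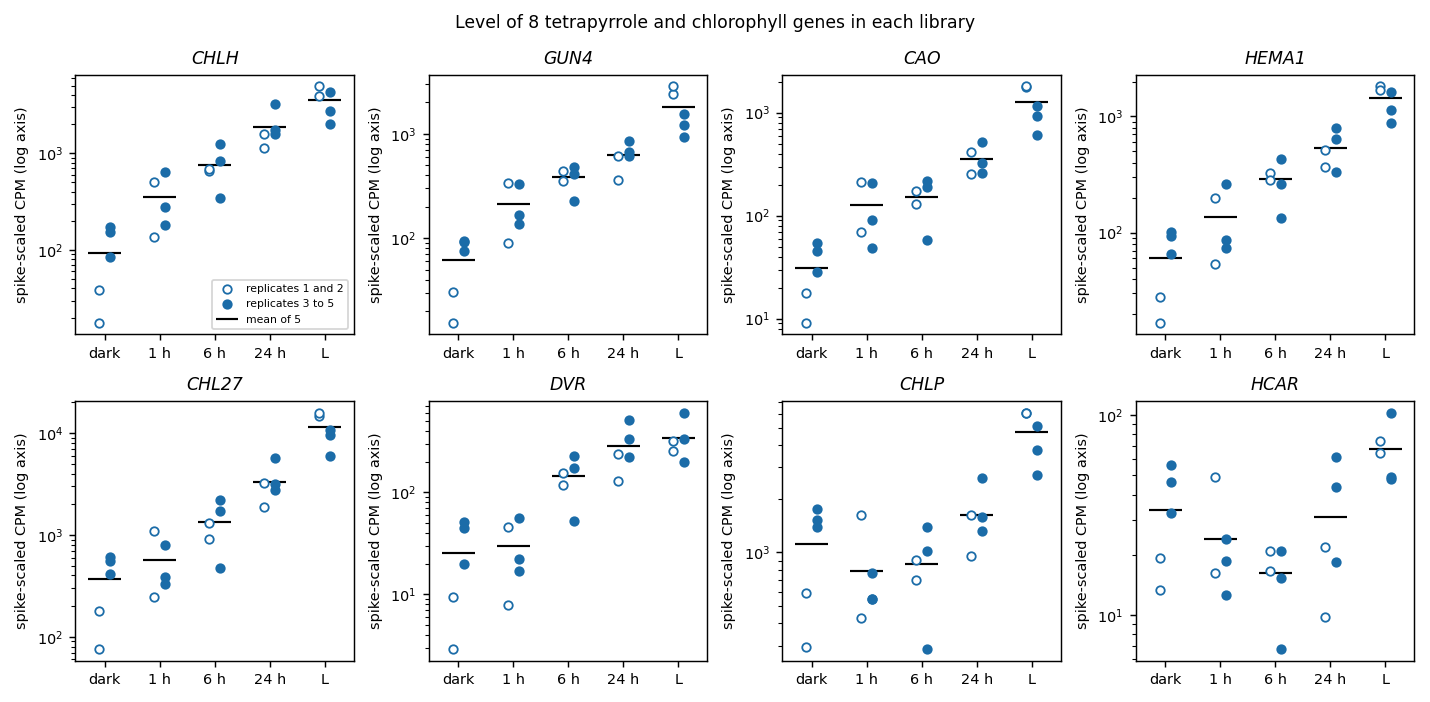
Spike-scaled CPM (log axis) of 8 genes in each library by group, open circles for replicates 1 and 2, filled circles for replicates 3 to 5 and a bar for the mean of 5. CHLH, GUN4, CAO and HEMA1 have 6 h libraries above all dark libraries, whereas CHLP and HCAR still overlap the dark range at 24 h.

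The common path from ALA to protoporphyrin IX is run by HEMB1 (AT1G69740), HEMC (AT5G08280), HEMD (AT2G26540), HEME1 (AT3G14930), HEME2 (AT2G40490), HEMF1 (AT1G03475) and the oxidases PPOX1 (AT4G01690) and PPOX2 (AT5G14220). None of these 8 genes was called at 1 h, where their changes lay between -0.10 and 0.24. At 6 h HEMC, HEME1 and HEME2 rose, and at 24 h all but PPOX2 did. The median change was 1.09 at 6 h, 2.06 at 24 h and 2.57 in L on the spike scale. Under TMM 5 were higher and 1 lower at 6 h, 7 and 1 at 24 h and 3 and 1 in L, with PPOX2 the lower one each time. The median in L on that scale was 0.30.

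HEME1 and HEME2 encode uroporphyrinogen decarboxylase, which starts the part of the path that makes the ring less soluble in water. HEME1 stood at 14.3, 32.2, 51.2, 91.6 and 98.6 spike-scaled CPM in dark replicates 1 to 5, at 31.5, 134, 28.9, 99.7 and 45.7 in the 1 h replicates and at 256, 286, 91.6, 329 and 249.8 in the 6 h replicates. At 24 h HEME1 had 283, 451, 328, 528 and 308, and in L 396, 451, 229, 539.9 and 576. The 6 h libraries overlapped the dark ones through replicate 3 alone. HEME1 changed by 2.07 ± 0.51 (adjusted p = 0.0026) at 6 h and 2.72 ± 0.52 (adjusted p = 7.31e-05) at 24 h. HEME2 stood at 25.5, 43.2, 70.4, 125 and 116 spike-scaled CPM in dark replicates 1 to 5, at 36.5, 170.4, 40.6, 105 and 58.0 in the 1 h replicates and at 261, 277, 81.9, 333 and 292 in the 6 h replicates. At 24 h HEME2 had 283, 471, 314, 658 and 434, and in L 508, 537, 226, 807 and 512. HEME2 likewise had its 6 h replicate 3 inside the dark range. HEME2 changed by 1.71 ± 0.50 (adjusted p = 0.011) at 6 h and 2.51 ± 0.52 (adjusted p = 0.000181) at 24 h. Their ratio differed from dark at 6 h, by 0.47 ± 0.12 on the log2 scale (exact permutation, adjusted p = 0.0153), and did not pass at 1 h, at 24 h or in L. At 24 h it passed without 24 h replicate 5 (0.4). HEMC, which encodes porphobilinogen deaminase and had the highest counts of the 8, ranged over 31.4 to 260.0 in dark and 168 to 704 at 6 h, a change of 1.57 ± 0.54 (adjusted p = 0.0285). The call of HEMC was lost without dark replicates 1 (1.31), 2 (1.38) and 3 (1.55) or 6 h replicates 4 (1.34) and 5 (1.44).

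PPOX1 and PPOX2 encode protoporphyrinogen oxidase, the last common step. PPOX1 stood at 15.6, 24.0, 44.6, 73.7 and 71.4 spike-scaled CPM in dark replicates 1 to 5, at 20.2, 85, 21.4, 60.7 and 33.7 in the 1 h replicates and at 56.6, 109, 39.4, 177 and 129 in the 6 h replicates. At 24 h PPOX1 had 127, 217, 171, 340.0 and 195, and in L 409.7, 462, 206, 527 and 368. PPOX1 at 24 h was higher in every library than in the dark. Its change was 1.16 at 6 h (adjusted p = 0.0784) and 2.20 ± 0.51 (adjusted p = 0.000644) at 24 h. The 6 h value passed without dark replicate 4 (1.39) or 6 h replicate 3 (1.36). PPOX2 stood at 8.39, 15.8, 24.6, 44.4 and 40.4 spike-scaled CPM in dark replicates 1 to 5, at 16.6, 55.9, 7.56, 29.7 and 21.9 in the 1 h replicates and at 18.9, 31.4, 9.66, 35 and 33.2 in the 6 h replicates. At 24 h PPOX2 had 14.7, 36.8, 20.7, 46.9 and 39.7, and in L 87.7, 95.6, 36.1, 109 and 58.8. PPOX2 overlapped the dark range in every group. It changed by 0.25 at 24 h, which did not pass, and by 1.53 ± 0.50 (adjusted p = 0.00554) in L, and on the TMM scale it was lower than dark in L (-0.81, adjusted p = 0.000792). The ratio PPOX1/PPOX2 did not differ at 1 h and rose by 1.16 ± 0.14 at 6 h, 1.99 ± 0.16 at 24 h and 1.61 ± 0.10 in L (exact permutation, adjusted p = 0.0153 each). Reads that could belong to PPOX2 or to its overlapping neighbour AT5G14210 were counted in a merged entry and made 5.58% of the counts of both entries. HEMB1, HEMD and HEMF1, encoding ALA dehydratase, uroporphyrinogen III synthase and coproporphyrinogen oxidase, were first called at 24 h, with changes of 2.12, 1.79 and 1.73. HEMF1 also passed at 6 h without dark replicate 4 (1.32).

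Within L the share of the common path was uneven. It took 6.14, 6.55, 8.64, 12.2 and 10.6% of the counts of the 34 genes in L replicates 1 to 5. In the same libraries LHY, a clock gene that peaks around dawn, had 1227, 1571, 640.2, 354 and 34.3 spike-scaled CPM. The libraries with least LHY had the larger shares. The replicate sets described above split these libraries in the same way, by share and by LHY. The part of the time of day or of the replicate set in this spread was not tested.

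The magnesium branch had the highest median change of the 6 roles at 6 h, 24 h and in L. CHLH (AT5G13630), the large porphyrin-binding subunit of magnesium chelatase, and GUN4 (AT3G59400), its activator, rose within 1 h. Of the 10 genes 2 were called after 1 h, 7 after 6 h, 9 after 24 h and 10 in L, and the median change was 0.14, 1.83, 2.85 and 3.40. On the TMM scale 3 were higher at 1 h, 8 higher and 1 lower at 6 h, 9 and 1 at 24 h, and 8 higher and none lower in L. The lower one was CHLP both times.

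CHLH (chr5:4387307-4392429, minus strand, 5 exons) had the largest change of the set at 6 h and 24 h. CHLH stood at 17.7, 38.6, 83.9, 155 and 172 spike-scaled CPM in dark replicates 1 to 5, at 136, 507, 184, 644 and 281 in the 1 h replicates and at 664, 683, 344, 1266 and 843 in the 6 h replicates. At 24 h CHLH had 1136, 1603, 1751, 3212 and 1574, and in L 3971, 4941, 2022, 4349 and 2717. Only from 6 h on did all libraries lie above the dark range, since 1 h replicate 1 fell inside it. CHLH changed by 1.9 ± 0.54 (adjusted p = 0.0357) after 1 h, 3.02 ± 0.57 (adjusted p = 0.000133) after 6 h, 4.31 ± 0.60 (adjusted p = 5.78e-07) after 24 h and 5.27 ± 0.63 (adjusted p = 1.02e-08) in L. The 1 h value was 3.51 within replicates 1 and 2 and 1.43 within replicates 3 to 5, and the second did not pass. At 1 h CHLH did not pass without dark replicates 1 (1.64), 2 (1.71) and 3 (1.87) or 1 h replicates 2 (1.73) and 4 (1.56). By TMM CHLH changed by 2.02 at 1 h and 3.25 at 24 h.

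GUN4 (chr3:21948501-21949796, minus strand, 1 exon) followed it closely. GUN4 stood at 15.5, 30.8, 75.9, 92 and 93.6 spike-scaled CPM in dark replicates 1 to 5, at 90.9, 336, 168, 327 and 137 in the 1 h replicates and at 443, 351, 225, 486 and 415 in the 6 h replicates. At 24 h GUN4 had 363, 607, 673, 857 and 607, and in L 2421, 2846, 922, 1543 and 1224. The dark and 1 h libraries met only where 1 h replicate 1 fell just below the highest dark values. GUN4 changed by 1.78 ± 0.49 (adjusted p = 0.0283) after 1 h, 2.64 ± 0.51 (adjusted p = 0.000183) after 6 h, 3.34 ± 0.52 (adjusted p = 3.92e-06) after 24 h and 4.86 ± 0.56 (adjusted p = 5.48e-09) in L. Within the replicate sets the 1 h value was 3.2 and 1.27, and the second did not pass. At 1 h GUN4 did not pass without dark replicates 1 (1.53), 2 (1.61) and 3 (1.87) or 1 h replicates 2 (1.55) and 4 (1.57).

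The other chelatase subunits moved later. CHLD (AT1G08520), the subunit that links CHLI to CHLH, had nearly its dark level at 1 h. CHLD stood at 21.9, 38.0, 68.3, 115 and 114 spike-scaled CPM in dark replicates 1 to 5, at 31.0, 134, 33.0, 101.8 and 54.9 in the 1 h replicates and at 92.9, 148, 52.4, 215 and 179 in the 6 h replicates. At 24 h CHLD had 131, 226, 178, 383 and 244, and in L 351, 418, 188, 495 and 258. The dark and 6 h ranges of CHLD overlapped, and its L libraries all lay above dark. CHLD changed by -0.011 at 1 h, 0.94 at 6 h (neither passed) and 1.70 ± 0.51 (adjusted p = 0.00582) at 24 h. The ratio CHLH/CHLD was 0.809, 1.02, 1.23, 1.35 and 1.51 in dark replicates 1 to 5 and 4.38, 3.77, 5.57, 6.33 and 5.12 at 1 h, with no overlap. It differed from dark by 2.1 ± 0.21 after 1 h, 2.30 ± 0.20 after 6 h, 2.79 ± 0.19 after 24 h and 3.2 ± 0.17 in L on the log2 scale (exact permutation, adjusted p = 0.0153 each). Per length the median ratio went from 0.684 in dark to 2.84 at 1 h and 5.97 in L.

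CHLI1 (AT4G18480) and CHLI2 (AT5G45930) encode the ATP-splitting subunit. CHLI1 stood at 30.9, 63.0, 114, 245 and 234 spike-scaled CPM in dark replicates 1 to 5, at 66.4, 344, 96.6, 293 and 129 in the 1 h replicates and at 572, 562, 242, 915 and 687 in the 6 h replicates. At 24 h CHLI1 had 769.5, 1257, 1163, 2400.1 and 1359, and in L 2517, 2709, 1200.0, 3155 and 1815. Apart from 6 h replicate 3, which lay among the upper dark values, all libraries from 6 h on exceeded the dark ones. CHLI1 changed by 2.12 ± 0.55 (adjusted p = 0.00391) at 6 h and 3.34 ± 0.57 (adjusted p = 1.52e-05) at 24 h. CHLI2 stood at 4.93, 11.1, 22.9, 51.2 and 42.1 spike-scaled CPM in dark replicates 1 to 5, at 9.60, 56.0, 14.1, 39.0 and 18 in the 1 h replicates and at 91.5, 92.4, 25.5, 143 and 109 in the 6 h replicates. At 24 h CHLI2 had 70.9, 114, 104, 296 and 166, and in L 156, 186, 86.0, 445 and 217. CHLI2 kept to a much lower level in every library. It changed by 1.80 ± 0.58 (adjusted p = 0.0193) at 6 h and 2.51 ± 0.59 (adjusted p = 0.000807) at 24 h, and the 6 h call was lost without dark replicates 1 (1.54) and 2 (1.61) or 6 h replicate 4 (1.59). The ratio CHLI1/CHLI2 rose by 0.35 ± 0.085 after 1 h, 0.32 ± 0.14 after 6 h, 0.85 ± 0.13 after 24 h and 1.07 ± 0.25 in L (exact permutation, adjusted p = 0.025, 0.0354, 0.0153 and 0.0153). The 6 h value was lost without dark replicates 2 (0.34), 3 (0.29), 4 (0.28) and 5 (0.33) or 6 h replicates 3 (0.21), 4 (0.35) and 5 (0.35), and with labels exchanged within the replicate sets (exact permutation, adjusted p = 0.0667). The coding sequences agree in 81.8% of aligned bases with a longest shared run of 44. CHLH/CHLI1, on the other hand, was highest at 1 h: its median per length was 0.215 in dark, 0.690 after 1 h, 0.415 after 6 h, 0.453 after 24 h and 0.534 in L. It differed from dark in all 4 comparisons, by 1.57 ± 0.13 at 1 h and 0.96 ± 0.092 at 6 h (exact permutation, adjusted p = 0.0153 each).

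Past the chelatase, the methyltransferase CHLM (AT4G25080), the cyclase subunit CHL27 (AT3G56940), the divinyl reductase DVR (AT5G18660) and the chlorophyll synthase CHLG (AT3G51820) carry the pigment to chlorophyll a. CHL27 (chr3:21076505-21078443, plus strand) had the highest mean level per length of the set from 6 h on. At 1 h its mean of 384 ± 244 spike-scaled CPM per kb and that of CHLP, 375 ± 231, differed by far less than their spread. CHL27 stood at 76.0, 179.8, 413, 558 and 604 spike-scaled CPM in dark replicates 1 to 5, at 247, 1106, 329, 792 and 389 in the 1 h replicates and at 907, 1325, 473, 2213 and 1709 in the 6 h replicates. At 24 h CHL27 had 1892, 3249, 3165, 5693 and 2736, and in L 14785, 15881, 5897, 10749.8 and 9680.3. The 24 h libraries all lay above the dark ones, and 6 h replicate 3 fell among them. CHL27 changed by 1.86 ± 0.54 (adjusted p = 0.0105) at 6 h, 3.19 ± 0.57 (adjusted p = 2.82e-05) at 24 h and 4.96 ± 0.62 (adjusted p = 2.41e-08) in L. At 6 h it was 3.13 within replicates 1 and 2 and 1.48 within replicates 3 to 5, where it did not pass.

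DVR was called at 6 h and not at 1 h. DVR stood at 2.91, 9.45, 19.8, 51.0 and 44.4 spike-scaled CPM in dark replicates 1 to 5, at 7.87, 45.3, 17.1, 56.7 and 22.1 in the 1 h replicates and at 154, 117, 52.0, 227 and 175 in the 6 h replicates. At 24 h DVR had 129, 239, 225, 512 and 333, and in L 254, 319.9, 199.5, 607 and 334. All 6 h libraries lay above the highest dark library, the lowest of them by little. DVR changed by 0.22 ± 0.57 after 1 h, 2.51 ± 0.60 (adjusted p = 0.00204) after 6 h, 3.50 ± 0.63 (adjusted p = 2.83e-05) after 24 h and 3.75 ± 0.63 (adjusted p = 3.76e-06) in L. The value from 24 h to L was 0.25 ± 0.57 and did not pass. CHLM changed by 1.30 ± 0.45 (adjusted p = 0.0295) at 6 h, a call lost without dark replicates 1 (1.08) and 2 (1.16) or 6 h replicates 1 (1.18), 4 (1.22) and 5 (1.29), and by 1.97 ± 0.46 (adjusted p = 0.000631) at 24 h. CHLG stood at 17.9, 36.5, 61.8, 145 and 135 spike-scaled CPM in dark replicates 1 to 5, at 34, 136, 32.5, 93.3 and 62.2 in the 1 h replicates and at 112, 152, 49.0, 219 and 170.1 in the 6 h replicates. At 24 h CHLG had 212, 337, 251, 493 and 308, and in L 816, 967, 391, 701 and 422. CHLG overlapped the dark range at 6 h and cleared it at 24 h. Its change was 0.82 at 6 h (adjusted p = 0.235) and 2.01 ± 0.53 (adjusted p = 0.0021) at 24 h.

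CHLP (AT1G74470), geranylgeranyl reductase, supplies the phytol tail of chlorophyll and was named after its values were seen. CHLP was the most abundant member in dark, and the member of its branch not called before L. It stood at 294, 594, 1381, 1523 and 1756 spike-scaled CPM in dark replicates 1 to 5 and 696, 904, 288, 1379.5 and 1017 at 6 h. In the same order it had 953, 1611, 1586, 2625 and 1325 at 24 h and 6069, 6006, 2719, 5079 and 3755 in L. The 6 h and 24 h ranges overlapped the dark range and the L range did not. CHLP changed by -0.50 at 1 h, -0.37 at 6 h and 0.55 at 24 h, none of which passed, and by 2.09 ± 0.52 (adjusted p = 0.000428) in L. With TMM scaling it was lower than dark at 6 h (-0.91, adjusted p = 0.000185) and 24 h (-0.62, adjusted p = 0.00568), and in L it had -0.21, which did not pass.

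The make-up of the set changed from group to group. CHLP gave 36.1% ± 3.21 of the counts of the 34 genes in dark, 22.3% ± 4.22 after 1 h, 11.3% ± 1.12 after 6 h, 10.9% ± 0.771 after 24 h and 13.6% ± 0.983 in L. CHL27 gave 11.3% ± 1.30, 15.5% ± 0.928, 17.4% ± 2.57, 22.3% ± 1.33 and 32.5% ± 3.66 in the same order. CHLH went from 2.75% ± 0.590 in dark to 9.56% ± 2.25 at 1 h and 12.4% ± 0.877 at 24 h. These shares were described, not tested. For CHLP every dark library was above every library in light, and for CHLH every dark library was below.

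**Figure D3:**
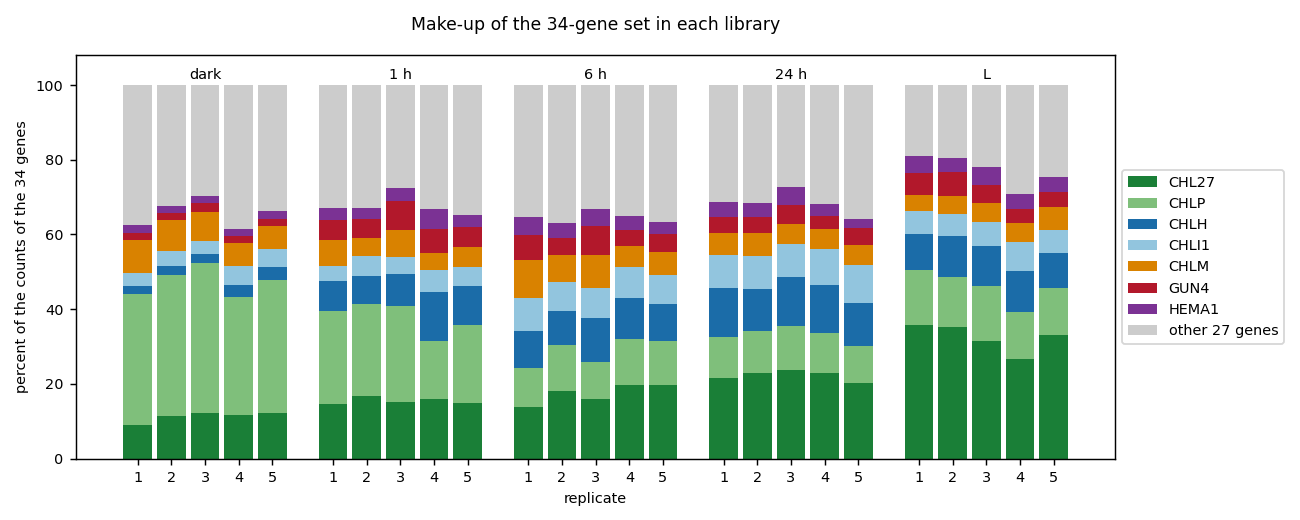
Percent of the counts of the 34 genes (y axis) taken by 7 genes and by the other 27 together, in each library (x axis: replicates 1 to 5 within dark, 1 h, 6 h, 24 h and L). CHLP shrinks from a mean of 36.1% in dark to 11.3% at 6 h, and CHL27 grows from 11.3% in dark to 32.5% in L.

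At the other arm of the branch point, FC1 (AT5G26030) and FC2 (AT2G30390) encode ferrochelatase, HO1 (AT2G26670) heme oxygenase and HY2 (AT3G09150) the synthase of phytochromobilin. None of the 4 was called after 1 h, FC1 and FC2 were after 6 h, HO1 joined them after 24 h and HY2 in L. The median change was 0.30, 0.83, 1.58 and 3.15 on the spike scale. FC2 stood at 4.0, 6.81, 16.6, 34.8 and 30.7 spike-scaled CPM in dark replicates 1 to 5, at 11.5, 50.1, 13.6, 44.8 and 24.3 in the 1 h replicates and at 70.0, 88.5, 42.5, 134 and 103 in the 6 h replicates. At 24 h FC2 had 66.5, 126, 111, 228 and 144, and in L 431, 463, 189.8, 447 and 263. All 6 h libraries of FC2 exceeded all dark libraries. FC2, the isoform tied to photosynthetic tissue, changed by 2.24 ± 0.53 (adjusted p = 0.00196) at 6 h, 2.86 ± 0.55 (adjusted p = 6.82e-05) at 24 h and 4.27 ± 0.58 (adjusted p = 1.16e-07) in L. Scaled by TMM, it was also called at 1 h (0.74, adjusted p = 0.00953).

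The enzymes of CHLH and FC2 draw on the same protoporphyrin IX. Their count ratio CHLH/FC2 was 4.43, 5.65, 5.05, 4.46 and 5.61 in dark replicates 1 to 5, 11.7, 10.1, 13.5, 14.4 and 11.6 at 1 h and 9.47, 7.71, 8.09, 9.46 and 8.19 at 6 h. It was 17.1, 12.8, 15.7, 14.1 and 11 at 24 h and 9.22, 10.7, 10.6, 9.73 and 10.3 in L. No library in light came down to the dark range, and the 1 h and 24 h libraries lay above all those of 6 h. The log2 ratio differed from dark by 1.28 ± 0.12 after 1 h, 0.77 ± 0.10 after 6 h, 1.48 ± 0.14 after 24 h and 1.01 ± 0.087 in L (exact permutation, adjusted p = 0.0153 each).

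FC1 was measured with less certainty. FC1 stood at 1.54, 0.646, 3.99, 4.98 and 4.10 spike-scaled CPM in dark replicates 1 to 5, at 3.83, 5.83, 1.97, 5.86 and 6.82 in the 1 h replicates and at 4.10, 11.8, 3.11, 11.5 and 7.68 in the 6 h replicates. At 24 h FC1 had 4.81, 5.86, 11.3, 12.1 and 10.6, and in L 36.1, 40.6, 18.3, 28.1 and 20.1. Only in L did all its libraries clear the dark range. FC1 changed by 1.33 ± 0.49 (adjusted p = 0.0393) at 6 h, a call lost without dark replicates 1 (1.16), 2 (1.07) and 3 (1.45) or 6 h replicates 2 (1.11), 4 (1.14) and 5 (1.33), and by 3.23 ± 0.52 (adjusted p = 1.69e-06) in L. An entry that merges FC1 with AT5G26038, a gene overlapping it on the same strand, held 63.4% of the counts of both entries. The merged entry had 2.11, 1.14, 1.60, 4.70 and 2.28 spike-scaled CPM in dark replicates 1 to 5 and 20.2, 54.0, 20.2, 13.2 and 8.21 at 1 h, a change of 3.29 ± 0.60 (adjusted p = 0.000394). Which of the overlapping genes gave those reads was not tested. The ratio FC1/FC2 fell by 1.10 at 6 h, 1.39 at 24 h and 1.13 in L on the log2 scale without the merged reads (exact permutation, adjusted p = 0.025 each). The 6 h value was lost without 6 h replicates 1 (-0.98), 3 (-1.06), 4 (-1.12) and 5 (-1.07).

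HO1 and HY2 together make the pigment of phytochrome. HO1 ranged over 29.1 to 104 spike-scaled CPM in dark, 94.8 to 408 at 24 h and 265 to 855 in L. It changed by 1.61 ± 0.48 (adjusted p = 0.006) at 24 h and 3.06 ± 0.51 (adjusted p = 2.93e-06) in L. HY2 ranged over 3.49 to 18.3 in dark and 13.8 to 32.1 in L, with overlap. Its change was 0.95 at 24 h (adjusted p = 0.0849), a value that passed without dark replicate 4 (1.31), and 1.33 ± 0.48 (adjusted p = 0.0103) in L. Under TMM HY2 was lower than dark in L (-0.96, adjusted p = 0.000178).

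**Figure D4:**
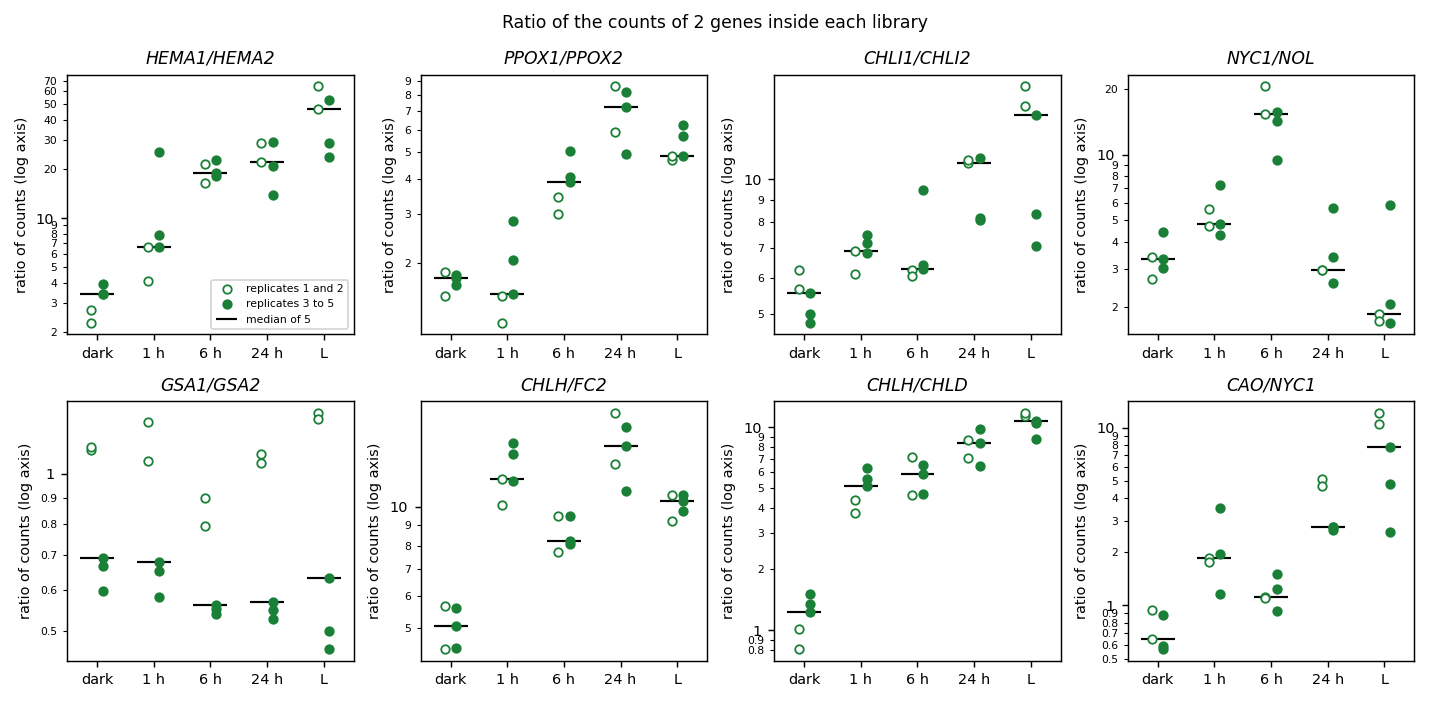
Ratio of the counts of 2 genes inside each library (log axis) by group, open circles for replicates 1 and 2, filled circles for replicates 3 to 5 and a bar for the median of 5. HEMA1/HEMA2 and CHLH/CHLD leave the dark range at 1 h, NYC1/NOL is highest at 6 h, and GSA1/GSA2 separates the replicate sets in all groups.

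Genes of the chlorophyll cycle parted. CAO (AT1G44446) makes the b form from the a form, NYC1 (AT4G13250) and NOL (AT5G04900) reduce chlorophyll b, and HCAR (AT1G04620) completes the way back to chlorophyll a. CAO (chr1:16848308-16851271, minus strand, 9 exons) had the largest change of the set at 1 h and in L. CAO stood at 9.15, 17.6, 28.5, 45.3 and 53.9 spike-scaled CPM in dark replicates 1 to 5, at 69.7, 212, 48.5, 209 and 89.9 in the 1 h replicates and at 129.8, 172, 57.5, 215 and 189.7 in the 6 h replicates. At 24 h CAO had 256, 413, 326, 524 and 260.1, and in L 1767, 1802, 605, 1173 and 932. Of the 1 h libraries 4 lay above all dark libraries, and replicate 3 fell among them. CAO changed by 2.03 ± 0.51 (adjusted p = 0.0141) after 1 h, 2.31 ± 0.52 (adjusted p = 0.00105) after 6 h, 3.53 ± 0.55 (adjusted p = 3.03e-06) after 24 h and 5.35 ± 0.59 (adjusted p = 2.41e-09) in L. The 1 h value was 3.40 within replicates 1 and 2 and 1.44 within replicates 3 to 5, where it did not pass. The 1 h value did not pass without dark replicate 2 (1.88) or 1 h replicates 2 (1.76) and 4 (1.77). From 1 h to 6 h CAO had 0.28 ± 0.49 (adjusted p = 0.732), and on the TMM scale that value was -0.22.

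NYC1 and NOL, whose products work together, were furthest apart at 6 h. NYC1 stood at 14.1, 18.6, 50.1, 77.1 and 60.8 spike-scaled CPM in dark replicates 1 to 5, at 37.5, 121, 41.7, 59.5 and 46.2 in the 1 h replicates and at 116, 157, 61.6, 175 and 126 in the 6 h replicates. At 24 h NYC1 had 49.9, 87.7, 118, 197 and 94.8, and in L 146, 171, 78.0, 245 and 361. NYC1 was higher at 6 h, where only replicate 3 lay inside the dark range. It changed by 1.53 ± 0.50 (adjusted p = 0.021) at 6 h, 1.31 ± 0.49 (adjusted p = 0.0255) at 24 h and 2.18 ± 0.51 (adjusted p = 0.000228) in L. The 6 h call was lost without dark replicates 1 (1.30) and 2 (1.33) or 6 h replicate 4 (1.38), and the 24 h call without dark replicates 1 (1.08) and 2 (1.11) or 24 h replicate 4 (0.99). Within the replicate sets the 6 h value was 3.06 and 0.95. TMM gave NYC1 1.09 at 6 h (adjusted p = 0.00159), 0.14 at 24 h and -0.047 in L, where the direction turned, and the last values did not pass (adjusted p = 0.675 and 0.895).

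NOL stood at 4.17, 6.87, 11.3, 23.0 and 20 spike-scaled CPM in dark replicates 1 to 5, at 6.68, 25.5, 5.74, 12.3 and 10.7 in the 1 h replicates and at 5.63, 10.2, 3.92, 12.3 and 13.3 in the 6 h replicates. At 24 h NOL had 16.9, 29.7, 20.7, 57.8 and 36.7, and in L 77.8, 98.2, 37.5, 144 and 61.2. The 6 h libraries of NOL lay within the dark range, or, for replicate 3, just below it. NOL changed by -0.53 at 6 h (adjusted p = 0.45), 1.31 ± 0.50 (adjusted p = 0.0269) at 24 h and 2.68 ± 0.52 (adjusted p = 2.57e-05) in L. The 24 h call was lost without dark replicates 1 (1.08), 2 (1.14) and 3 (1.26) or 24 h replicate 4 (0.99). On the TMM scale NOL was lower than dark at 6 h (-1.03, adjusted p = 0.000113). A merged entry with the neighbouring AT5G04910 held 8.83% of the counts of both.

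NYC1/NOL gave a transient peak. The ratio was 3.39, 2.70, 4.43, 3.34 and 3.04 in dark replicates 1 to 5, 5.61, 4.73, 7.26, 4.84 and 4.3 at 1 h and 20.5, 15.3, 15.7, 14.2 and 9.46 at 6 h. It was 2.96, 2.95, 5.72, 3.40 and 2.58 at 24 h and 1.87, 1.74, 2.08, 1.70 and 5.88 in L. Every 6 h library lay above every library of the other groups. The log2 ratio differed from dark by 0.66 ± 0.18 at 1 h (exact permutation, adjusted p = 0.025) and 2.13 ± 0.22 at 6 h (adjusted p = 0.0153). At 24 h the difference was 0.018 ± 0.23 and in L -0.52 ± 0.36, and neither passed. Without L replicate 5, whose ratio was the highest and whose LHY count was the lowest of L, the L value was -0.85 and passed. CAO/NYC1 had a median per length of 0.617 in dark, 1.77 after 1 h, 1.07 after 6 h, 2.63 after 24 h and 7.39 in L. It differed from dark in all 4 comparisons, by 1.43 ± 0.30, 0.71 ± 0.19, 2.28 ± 0.26 and 3.21 ± 0.44 (exact permutation, adjusted p = 0.025 at 6 h and 0.0153 otherwise). The 6 h value was lost without 6 h replicates 4 (0.69) and 5 (0.62).

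HCAR, named after its values were seen, was the member that had the most negative change at 6 h. It ranged over 13.3 to 56.5 spike-scaled CPM in dark, 6.75 to 20.9 at 6 h, 9.76 to 61.5 at 24 h and 47.9 to 103 in L. HCAR changed by -1.06 ± 0.48 at 6 h (adjusted p = 0.099), which did not pass (within replicates 3 to 5 alone it was -1.65 and passed), and by 1.01 ± 0.48 (adjusted p = 0.0487) in L, a call lost without dark replicates 1 (0.81), 2 (0.87) and 3 (1.00) or L replicates 1 (1.03), 2 (0.98) and 4 (0.81). By TMM HCAR was lower than dark at 6 h (-1.58, adjusted p = 8.44e-06), 24 h (-1.44) and in L (-1.30).

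Genes of chlorophyll breakdown stood at low levels in the dark. SGR1 (AT4G22920) and SGR2 (AT4G11910) take magnesium out of chlorophyll a, PPH (AT5G13800) removes phytol and PAO (AT3G44880) opens the ring. None of the 4 was called at 1 h or 6 h (at an unadjusted p under 0.05 SGR1 was higher at 1 h), 3 were at 24 h and all were in L. Their summed share of the counts of the 34 genes was 1.27% ± 0.740 in dark, 0.566% ± 0.0687 at 6 h and 0.706% ± 0.152 in L. SGR1 stood at 4.83, 4.44, 6.60, 11.3 and 10.4 spike-scaled CPM in dark replicates 1 to 5, at 10.3, 28.1, 8.82, 14.8 and 11 in the 1 h replicates and at 14.4, 16.1, 6.15, 17.4 and 14.4 in the 6 h replicates. At 24 h SGR1 had 14.3, 32.0, 29.2, 38.8 and 21.9, and in L 94.7, 96.2, 29.7, 131 and 55.9. The SGR1 libraries of 1 h and 6 h overlapped the dark range, and those of 24 h did not. SGR1 changed by 0.96 ± 0.44 at 1 h (adjusted p = 0.358), 1.86 ± 0.45 (adjusted p = 0.000955) at 24 h and 3.44 ± 0.48 (adjusted p = 1.46e-07) in L. With TMM scaling it was higher at 1 h (0.86, adjusted p = 0.00384).

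SGR2 was the scarcest member in all groups, with 3 to 28 counts in a library. SGR2 stood at 0.196, 0.489, 0.421, 0.459 and 0.326 spike-scaled CPM in dark replicates 1 to 5, at 0.300, 0.445, 0.319, 0.166 and 0.459 in the 1 h replicates and at 0.238, 0.364, 0.394, 0.40 and 0.147 in the 6 h replicates. At 24 h SGR2 had 0.397, 0.817, 0.936, 0.719 and 0.694, and in L 1.59, 1.41, 0.294, 0.838 and 1.36. Its dark and L ranges overlapped at L replicate 3. SGR2 changed by 1.52 ± 0.60 (adjusted p = 0.0185) in L, a call lost without L replicate 1 (1.34), and on the TMM scale it had -1.13, which did not pass. SGR1/SGR2 differed from dark by 0.92 ± 0.34 at 24 h (exact permutation, adjusted p = 0.0354) and 1.89 ± 0.44 in L (adjusted p = 0.0153). The 24 h value was lost without 24 h replicate 4 (0.80) and with labels exchanged within the replicate sets (adjusted p = 0.0667). The 1 h value passed without 1 h replicate 5 (1.28) and the 6 h value without 6 h replicate 3 (1.49).

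PAO and PPH, which act later in breakdown, were first called at 24 h. PAO ranged over 4.72 to 16.1 spike-scaled CPM in dark, 6.24 to 22.9 at 6 h and 31.6 to 106 at 24 h. It changed by 2.44 ± 0.49 (adjusted p = 0.000115) at 24 h and 3.34 ± 0.50 (adjusted p = 6.49e-07) in L. PPH stood at 9.93, 7.02, 15.5, 15.1 and 11.5 spike-scaled CPM in dark replicates 1 to 5, at 9.86, 24.6, 7.62, 8.25 and 6.56 in the 1 h replicates and at 10.2, 13.9, 4.16, 14.6 and 12.9 in the 6 h replicates. At 24 h PPH had 18.3, 30.4, 26.4, 34.5 and 20.9, and in L 74.1, 74.6, 20, 62.6 and 58.1. PPH at 6 h lay inside the dark range apart from replicate 3, which was below it. PPH changed by 1.15 ± 0.43 (adjusted p = 0.0258) at 24 h, a call lost without dark replicates 1 (1.09) and 2 (1.01) or 24 h replicates 2 (1.08) and 4 (1.02), and on the TMM scale the direction at 24 h turned (-0.27, adjusted p = 0.4). At 6 h PPH was lower than dark on that scale (-0.87, adjusted p = 0.00754). CHLG/PPH, the gene of the last step of synthesis over one of breakdown, differed from dark by 1.21 ± 0.49 at 6 h (exact permutation, adjusted p = 0.0459). That value was lost without any 1 of the 6 h replicates, 1 (1.25), 2 (1.25), 3 (1.22), 4 (1.14) and 5 (1.18). At 24 h and in L the differences of 1.19 and 1.15 did not pass, and they did without dark replicates 4 (1.40) and 5 (1.47) at 24 h and without dark replicate 5 (1.44) in L.

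Over all 13 pairs the ratio differed from dark in 7 after 1 h, 11 after 6 h, 9 after 24 h and 9 in L. The count at 6 h was 7 without 6 h replicate 4 or 5. Ratios of other gene pairs were not tested, and some of these pairs share a gene, so the counts cannot be read as particular to these pairs.

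From 1 h to 6 h, 8 members rose (13.6% of all genes were higher and 3.12% lower): HEMC, HEME1, HEME2, CHLI1, CHLI2, CHLM, DVR and FC2. CHLH, GUN4 and CAO, called at 1 h, were not among them. DVR changed most, by 2.28 ± 0.60 (adjusted p = 0.00806), and HEME1 by 1.84 ± 0.51 (adjusted p = 0.0119), and both stayed called whichever library was left out. The count was 2 without 1 h replicate 1, 3 or 5 or 6 h replicate 4, 3 without 6 h replicate 5, 5 without 6 h replicate 2 and 13 without 1 h replicate 2. Scaled by TMM, 16 were higher and 6 lower (21.2% and 23.3% of all genes).

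From 6 h to 24 h the 2 genes that rose were NOL, by 1.83 ± 0.51 (adjusted p = 0.022), and PAO, by 1.93 ± 0.48 (adjusted p = 0.01), where 6.82% of all genes were higher and 0.412% lower. NOL was lost without 6 h replicates 1 (1.70) and 3 (1.64) or 24 h replicate 4 (1.52), and PAO without 24 h replicate 4 (1.63). With only the libraries of 6 h and 24 h fitted 12 members were higher, with DESeq2 4 on the Drosophila scale and 10 with median-ratio size factors. Under TMM CHL27, CHLG, CAO, NOL and PAO were higher and NYC1 lower (-0.95, adjusted p = 0.0165), where 9.54% of all genes were higher and 7.57% lower.

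From 24 h to L 14 members rose, where 52.5% of all genes were higher and 0.514% lower, and the members' median of 0.90 was below the 1.18 of all genes. CAO changed by 1.82 ± 0.51 (adjusted p = 0.00984), FC1 by 1.68 ± 0.49 (adjusted p = 0.0118) and SGR1 by 1.58 ± 0.44 (adjusted p = 0.0099), and these 3 stayed called whichever library was left out. CHL27 changed by 1.77 ± 0.54 (adjusted p = 0.0146) and was lost without 24 h replicate 1 (1.62). The count was 3 without 24 h replicate 1, 7 without 24 h replicate 3, 8 without L replicate 1 or 4, 5 without L replicate 2 and 6 with TMM over Drosophila genes. On the TMM scale CHL27 and CAO were higher and GSA1, HEME1, HEME2, HEMF1, CHLD and HY2 lower (5.98% and 4.65% of all genes).

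Ordered by mean level per kb of the longest transcript, CHLP led in dark with 532 spike-scaled CPM per kb, ahead of CHL27 with 245 and CHLM with 144. The dark SDs of CHLP and CHL27 between libraries were 302 and 155, and inside each dark library CHLP had the higher level. In L the order was CHL27 with 7635 ± 2704, CHLP with 2264 ± 700.0, CHLI1 with 1417 ± 481 and GUN4 with 1382 ± 628. CHLI1 and GUN4 lie within their spread of each other. CHLH moved from rank 18 in dark to rank 7 at 1 h and CAO from rank 23 to rank 8, while HCAR moved from rank 22 in dark to rank 28 in L. FC1 and SGR2 held ranks 33 and 34 in every group. The rank of FC1 leaves out the merged entry, which held 63.4% of the counts of both entries.

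Other genes of the pathway and its known regulators, on lists beside the set, give its surroundings. Of 23 other pathway genes 19 were tested, and 1, 10, 13 and 15 were higher than dark in the 4 comparisons in order of time, with L last, while 0, 3, 3 and 2 were lower. Of all genes 3.06%, 21.4%, 50.3% and 84.9% were higher and 0.994%, 5.05%, 3.76% and 1.96% lower. The count in L cannot be read as particular to the list. No gene of that list was lower at 1 h by edgeR's test, and 4 of either direction had an unadjusted p under 0.05. The median changes of the list were 0.15, 1.40, 2.05 and 3.07. The light-dependent protochlorophyllide reductases, which make chlorophyllide from the intermediate that dark-grown tissue holds, parted. PORA averaged 1051 ± 775 spike-scaled CPM in dark, 7.44 ± 5.11 at 6 h and 0.851 ± 0.262 at 24 h, PORB 1393 ± 926 in dark and 72.0 ± 17.5 at 24 h, and PORC 26.7 ± 22.3 in dark and 280.4 ± 128 at 24 h. SGRL, a relative of SGR1, was the gene of the list called at 1 h (1.9 ± 0.53), and it averaged 32.7 ± 23.2 in dark and 325 ± 92.1 at 6 h. LIL3.1 and LIL3.2 encode proteins that hold geranylgeranyl reductase at the membrane. LIL3.1 changed by 1.52 ± 0.50 and LIL3.2 by -2.32 ± 0.49 at 6 h, where CHLP itself had -0.37.

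Of 9 regulators of synthesis 3, 2, 4 and 7 were higher than dark in the 4 comparisons, and PIF3 was the 1 lower, at 6 h. Of all genes 3.06%, 21.4%, 50.3% and 84.9% were higher, so the count in L cannot be read as particular to this list either. HY5, GLK2 and CGA1, activators of greening genes, were those called at 1 h, with changes of 1.96 ± 0.50, 3.14 ± 0.53 and 5.14 ± 0.68. HY5 averaged 47.4 ± 15.2 spike-scaled CPM in dark, 185 ± 122 at 1 h and 56.8 ± 25.9 at 6 h. GLK1 changed by 1.39 ± 0.56 at 24 h and 5.07 ± 0.65 in L. Of 7 regulators of breakdown 1, 1, 2 and 2 were higher and 1, 3, 2 and 2 lower, beside the same shares of all genes higher and 0.994%, 5.05%, 3.76% and 1.96% lower. The senescence regulators NAP and ABI5 were lower at 6 h, at 24 h and in L, with -2.89 ± 0.59 and -1.78 ± 0.47 at 6 h. ORE1, another,  was lower at 1 h (-2.15 ± 0.56) and 6 h and higher at 24 h (2.22 ± 0.56). By TMM the counts in L were 10 higher and 6 lower for the other pathway genes, 3 and 2 for the regulators of synthesis and 0 and 6 for those of breakdown. Of all genes 28.6% were higher and 28.1% lower on that scale.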

How the data were processed

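Cotyledon RNA of 25 libraries, 5 in each of 5 groups, was sequenced as paired-end stranded DNB-seq libraries, per the labels' protocols. The deposited table holds the authors' raw count per gene for Arabidopsis and Drosophila. HTSeq, Salmon 1.9.0 and R 4.3.2 with the build TAIR10 are named in the submitters' processing notes. A strand setting for the counting was not given in the sources used here. Entries without an identifier held 0.119% to 0.741% of a library and were left out. Every column was mapped to a library by its label.

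The test came from edgeR 4.0.16 run in R 4.3.3, over nuclear, plastid and mitochondrial Arabidopsis entries, with merged entries included. After filterByExpr, which left 20615 genes, the quasi-likelihood test was used with Benjamini-Hochberg over all genes tested. All 25 libraries were in one fit with library sizes set by Drosophila counts. The second scale was TMM, and DESeq2 1.42.0 was an alternative. The steps were tested on simulated data. For edgeR, changes were put into 200 genes at 24 h, with less spread between libraries than the real counts had. Of log2 changes of 1, 20% were recovered, and of changes of 2, 3 and -2, 96%, 100% and 84%. A gene that did not pass may therefore still have changed. Count ratios of 13 gene pairs were compared by two-sided exact permutation of the 252 assignments of libraries to groups. The replicate numbers were not used as pairs. Per-length values use the longest RefSeq TAIR10.1 transcript. Promoter windows and coding sequences were read from that genome, and identity between isoforms was computed on coding sequences. Merged entries are not part of a gene's own counts.

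The members and all gene lists were chosen with earlier results of these data known. Values in every library are given for HEMA1, for the 3 called members with the largest rise (or fall) in each comparison with dark and for both genes of each pair whose ratio differed, and the others get ranges. CHLP and HCAR fall outside that rule and were singled out after their values were seen.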

Additional observations from a re-analysis of the deposited data

Results flagged for a closer look

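Levels of the 34 genes in 5 groups gave 170 sets of 5 libraries, and in 8 of them the highest or lowest library stood apart from the other 4 by Dixon's 95% criterion. Chance alone marks about 1 in 20 such sets. In the 1 h group, replicate 2 was the high library for HEMA2 (30.1 spike-scaled CPM), CHLP (1616), NYC1 (121) and PPH (24.6). In the 6 h group, replicate 3 was the low library for HEME2 (81.9) and SGR1 (6.15). In L, replicate 4 was the high library for GSA2 (747) and HEMB1 (945).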

How the results depend on the processing

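Counts of members are given first for the 4 groups in light against dark, by time with L last, and then for each group against the one before it. Shares of all genes called were counted only for Drosophila scaling of all 25 libraries and for TMM over Arabidopsis genes. All 25 libraries with Drosophila scaling gave 3, 15, 28, 34, 8, 2 and 14 higher and none lower. TMM over Arabidopsis genes gave 7, 19, 23, 18, 16, 5 and 2 higher and 0, 6, 4, 4, 6, 1 and 6 lower, and DESeq2 with median-ratio size factors 8, 19, 23, 18, 17, 10 and 2 higher and 1, 6, 4, 4, 6, 1 and 7 lower. These scales set the median gene near no change by construction. With Drosophila scaling, DESeq2 gave 3, 16, 28, 34, 9, 4 and 14 higher and none lower, TMM over Drosophila genes 3, 16, 28, 30, 9, 2 and 6 higher and none lower, no low-count filter 2, 14, 28, 33, 7, 2 and 12 higher and none lower, and a term for the replicate sets 3, 16, 28, 34, 8, 2 and 14 higher and none lower. Fitting only the 2 groups compared gave 1, 13, 28, 33, 8, 12 and 16 higher and none lower. Replicates 1 and 2 alone gave 8, 24, 28, 33, 0, 0 and 12 higher and none lower, and replicates 3 to 5 alone 0, 7, 25, 29, 7, 2 and 0 higher and 0, 1, 0, 0, 0, 0 and 0 lower, with fewer libraries and HCAR the lower gene at 6 h. Where no construction shows it, the cause was not tested.

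Leaving out 1 library gave 0 to 3, 10 to 18, 25 to 29, 32 to 34, 2 to 13, 0 to 2 and 3 to 16 members higher in the same order and 0 lower throughout. Among the values of single members 141 lost their call in this way, 17 gained one and no called one turned negative. The pairs whose ratio differed from dark numbered 7 to 8, 7 to 11, 8 to 10 and 9 to 10 at 1 h, 6 h, 24 h and in L. An added count of 1 changed no call of a ratio. With labels exchanged within the replicate sets (exact permutation) CHLI1/CHLI2 at 6 h and SGR1/SGR2 at 24 h no longer passed (adjusted p = 0.0667 each), and GSA1/GSA2 passed at 6 h and 24 h (0.0271 each). Libraries were left out for members and pairs, not for the genes of the other lists.

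The labels do not say whether replicate numbers pair the libraries, and the criterion that every same-numbered correlation exceed 0.1 was not met, so the numbers were not used as pairs. The deviations of same-numbered libraries from their group means correlated over 0.1 in 44 of 50 pairs of groups (lowest 0.037, median 0.23), and 19 of 25 libraries correlated best with another of their own number, a hint from the data and not from the design. A fit with the replicate block gave 3, 20, 29, 34, 16, 12 and 18 higher and 0, 1, 0, 0, 0, 0 and 0 lower, where HCAR was the lower gene at 6 h, and with TMM and the block 8, 21, 23, 19, 18, 11 and 2 higher and 0, 6, 4, 4, 7, 1 and 11 lower.

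Some members that were positive with Drosophila scaling were negative on scales set by Arabidopsis genes. Only those called on at least 1 of the scales compared are listed, so members negative without a call on either are left out. Values are log2 fold changes with TMM, with DESeq2 median-ratio size factors and with TMM and the replicate block. At 24 h over dark these were HEMA2 (-0.84, -0.84, -0.85), PPOX2 (-0.97, -0.97, -0.98), CHLP (-0.62, -0.61, -0.62) and PPH (-0.27, -0.26, -0.20). In L over dark they were HEMA2 (-1.30, -1.30, -1.31), HEMF1 (-0.16, -0.15, -0.17), PPOX2 (-0.81, -0.80, -0.80), CHLD (-0.043, -0.030, -0.044), CHLP (-0.21, -0.20, -0.20), HY2 (-0.96, -0.94, -0.94), NYC1 (-0.047, -0.039, -0.087), HCAR (-1.30, -1.29, -1.31), SGR2 (-1.13, -1.14, -1.09) and PPH (-0.35, -0.34, -0.26). From 1 h to 6 h it was CHLP (-0.46, -0.44, -0.45). From 24 h to L they were GSA1 (-0.93, -0.92, -0.95), HEME1 (-0.92, -0.92, -0.95), HEME2 (-0.88, -0.88, -0.90), HEMF1 (-0.71, -0.70, -0.72), CHLD (-0.56, -0.56, -0.57), CHLM (-0.079, -0.076, -0.069), HY2 (-0.75, -0.74, -0.73) and PPH (-0.080, -0.076, -0.052). With the block and TMM the call, not the sign, sets apart GSA2 (-0.99), HEMB1 (-0.58), HEMD (-0.44) and DVR (-0.84), which were negative with plain TMM too and called lower with the block. Likewise HEMC was called lower with median-ratio factors and the block and TMM (-0.76, -0.87).

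The depth limits SGR2 most, with 0.147 to 1.59 spike-scaled CPM, and the merged entry limits FC1.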
